A study of Mus musculus with 8 samples.

Results

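The genes described here are 49 listed parts of interferon and innate immune signalling: sensors of microbial molecules, their adaptors, NF-kB proteins, cytokine and interferon receptors, JAK and STAT proteins, interferon regulatory factors (IRFs) and interferon targets. They were listed by symbol. Of the 49, 47 had a row with 1 gene symbol in the deposited table, among 24675 named genes, and the other 2 were not analysed here. A level filter, explained next, let 25 of the 47 be tested and left 22 out of the test.

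Expression was measured in tissue from above the dorsal aorta (dorsal, between notochord and aortic roof) and below it (ventral) in C57Bl/6 mouse embryos at embryonic day 12.5, with no treatment or transgene named in the labels. Both tissues were laser microdissected from frozen sections of the same embryos, and 4 arrays were made for each tissue, labelled as biological replicates 1 to 4. Values are log2 RMA intensities from Affymetrix mouse Gene 2.0 ST arrays, with 200 to 1000 pg of RNA taken for amplification. A gene was tested if it exceeded the median of an array (3.59 to 3.65) on at least 4 of the 8 arrays, which 12416 genes did. Differences are ventral minus dorsal, SD is over the 4 arrays of a tissue, and a replicate number joins the dorsal and ventral arrays that carry it. Since probes differ in how brightly they bind, the level of a gene is compared here between arrays and not with that of another gene. In pieces of tissue, fewer cells of a type and less RNA per cell cannot be told apart.

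Innate immune cells and many other cells sense microbial molecules with Toll-like receptors (TLRs) and with the cytoplasmic RNA sensors RIG-I (Ddx58) and MDA5 (Ifih1). Adaptors such as MyD88 pass the signal to NF-kB, a family of transcription factors held in the cytoplasm by inhibitors, and to IRFs. Interferons bind paired receptor chains, JAK kinases then phosphorylate STAT proteins, and these switch on a large set of antiviral target genes through a short promoter sequence, the interferon-stimulated response element (ISRE). In the embryonic aorta, low inflammatory signalling through tumour necrosis factor, interferons and TLR4 with NF-kB is known to act on forming blood stem cells.

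Short stretches upstream of 8 interferon targets are shown, 7 of them with the core letters of this element. Ifitm3 has no such letters in the 250 bases searched before a start, and other places were not searched. Some targets with the element passed the level filter and others did not. Passing it depends on probe brightness too, so the split does not compare output between genes. The sequences are from RefSeq (build GRCm38.p6), 5′ to 3′ on the strand of the gene, and capitals mark the core of the element (GAAA, any 2 bases and GAAA, or TTTC, any 2 bases and TTTC on the other strand, with overlapping copies joined). In the Ifitm3 stretch they mark an NF-kB site (GGGA, any 2 bases and TTCC, or GGAA, any 2 bases and TCCC on the other strand).
Isg15, chr4:156200856-156200915, minus strand: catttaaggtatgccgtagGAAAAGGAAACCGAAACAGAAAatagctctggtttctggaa
Ifit1, chr19:34640769-34640828, plus strand: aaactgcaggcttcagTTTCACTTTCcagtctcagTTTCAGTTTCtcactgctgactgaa
Oas1a, chr5:120907526-120907555, minus strand: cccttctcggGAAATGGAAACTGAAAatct
Gbp2, chr3:142620579-142620638, plus strand: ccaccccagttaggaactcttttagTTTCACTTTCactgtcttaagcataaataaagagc
Ifit3, chr19:34583397-34583426, plus strand: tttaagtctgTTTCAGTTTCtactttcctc
Bst2, chr8:71537565-71537624, minus strand: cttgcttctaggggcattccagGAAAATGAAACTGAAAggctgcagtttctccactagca
Ifitm2, chr7:140955988-140956017, minus strand: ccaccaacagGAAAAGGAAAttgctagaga
Ifitm3, chr7:141010826-141010885, minus strand: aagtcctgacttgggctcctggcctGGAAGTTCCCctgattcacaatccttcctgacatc
The first 4 of these genes were under the filter in both tissues, and the last 4 passed it. The Ifit3 and Ifitm2 stretches lie inside the annotated span of the gene, and that of Oas1a partly, since other transcripts start further upstream.

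The arrays as a whole bear on these genes in a few ways. Arrays correlated with each other at r = 0.907 to 0.957 over the genes tested, which are not independent replicates. Defining markers of the tissues differed in direction. All 6 sclerotome and cartilage markers had ventral means below dorsal, and 4 did not overlap (2.38% of all genes tested were lower without overlap). Of 8 markers of visceral mesenchyme and smooth muscle, 7 had ventral means above and Foxf1 below (-0.44). Without overlap 3 of these were higher, where 2.01% of all genes were. Over all genes tested 49.2% had higher ventral means, and no marker reached an adjusted p under 0.05 in limma. Both arrays of replicate number 4 held liver transcripts, with the 4 liver markers in the table summing to 2353 (dorsal) and 1012 (ventral) on the linear scale against 40.1 to 46.5 on the other 6 arrays. Of 16 macrophage markers, 15 were in the table and 13 were tested, and all 13 had ventral means above dorsal. Their summed linear level was 368 to 455 in dorsal and 511 to 776 in ventral tissue, without overlap. The pan-leukocyte gene Ptprc and the monocyte gene Cd14 lay under the median of every array. Of 9 T cell genes in the table, 8 lay under the median of every array and Trac alone passed the filter, through its ventral arrays (2.75 to 3.44 in dorsal and 7.15 to 10.13 in ventral tissue). Trac sets the summed T cell level, 60.4 to 65.5 in dorsal and 195 to 1175 in ventral tissue, and its part in the results was not tested.

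No member passed the test at an adjusted p under 0.05 (limma with the replicate number as a block, Benjamini-Hochberg over 12416 genes), and neither did any other gene (0% of those tested). At an unadjusted p under 0.05 there were 2 members of 25, Ifitm2 with higher and Jak2 with lower ventral values, where 8.26% of all genes tested reached it. The median difference over the 25 tested members was 0.055, beside -0.0039 over all genes tested, and the median size of a difference was 0.16 in both. Ventral means were higher for 14 members and lower for 11, where 49.2% of all genes were higher. Without replicate number 4 the median over members was -0.033. Of the 25, 2 were higher in ventral tissue in 4 of 4 replicate numbers (Ifitm2 and Tlr2, against 7.93% of all genes) and 2 lower (Jak2 and Nfkbia, against 8.46%). The tissues did not overlap for 2 members, both higher in ventral tissue (2.01% of all genes), and for 0 lower (2.38%). The share at an unadjusted p under 0.05 and the median size of a difference were near those of the whole table.

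**Figure D1:**
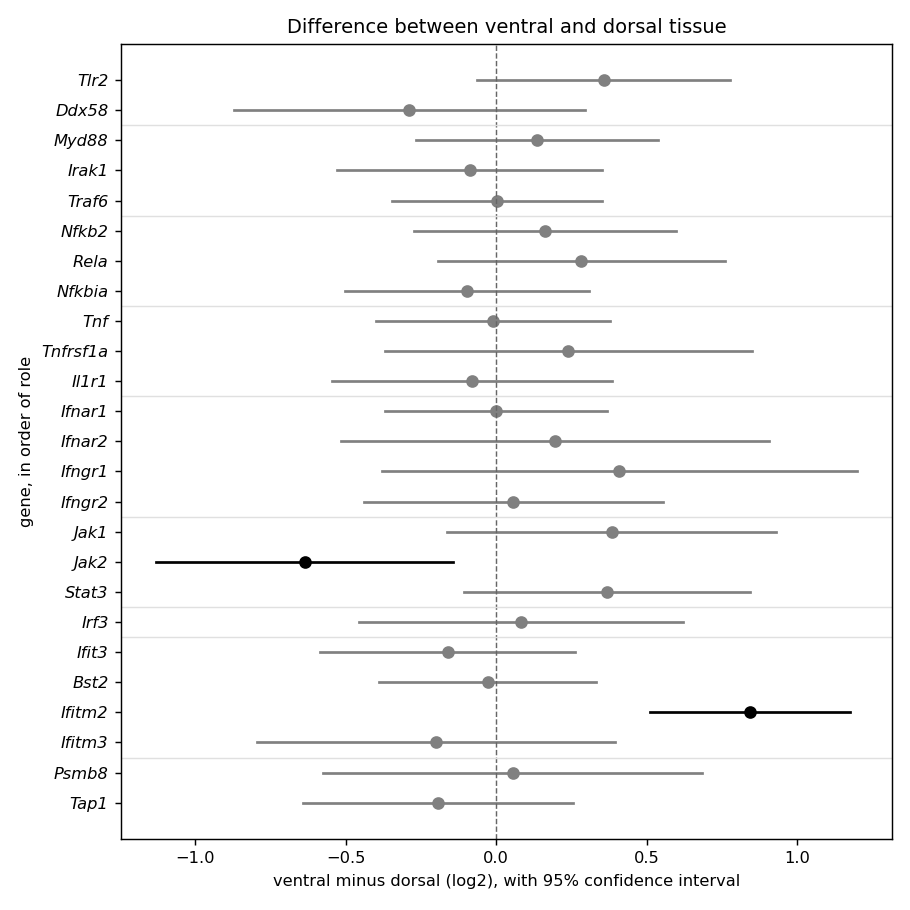
Ventral minus dorsal difference (log2) of each tested member with its 95% confidence interval from limma, in order of role. Black marks the 2 members at an unadjusted p under 0.05, Ifitm2 and Jak2, and the intervals of the other 23 span 0.

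Ifitm2 had the smallest p-value of the tested members, with higher values under the aorta. It encodes an interferon-induced transmembrane protein that restricts entry of enveloped viruses, and lies on chromosome 7 with Ifitm1 and Ifitm3, with no other protein-coding gene between these 3. Its dorsal arrays read 9.57, 9.33, 10.01 and 9.73 in order of replicate number, and its ventral arrays read 10.58, 10.53, 10.47 and 10.44. Every ventral array lay above every dorsal one, and the ventral arrays lay close together (SD 0.062, against 0.29 in dorsal tissue). The difference was 0.84 (SE 0.14, 95% interval 0.51 to 1.18), a 1.79-fold higher ventral value, with an unadjusted p of 0.000505 and an adjusted p of 0.192 in limma. It was the gene with the 32nd smallest p of all those tested. By replicate number the differences were 1.01, 1.20, 0.45 and 0.71. Leaving out 1 replicate number at a time gave 0.72 to 0.97.

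Ifitm3, its best-known relative and the main restriction factor for influenza virus among them, showed no such separation. The dorsal arrays of Ifitm3 read 7.59, 8.12, 7.43 and 7.55, and the ventral ones 7.67, 6.97, 7.34 and 7.90. The groups overlapped, 2 replicate numbers went each way, and the difference was -0.20 (SE 0.25, interval -0.80 to 0.40, adjusted p 0.894). The widest drop was in replicate number 2, and without that number the difference was 0.11. Ifitm1, which also encodes a membrane protein of this family, lay under the median of all 8 arrays, at 2.64 to 3.05 in dorsal and 3.03 to 3.11 in ventral tissue. The difference between Ifitm2 and Ifitm3 in their response to position was not tested, and whether probes of these similar genes bind each other's RNA was not tested.

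**Figure D2:**
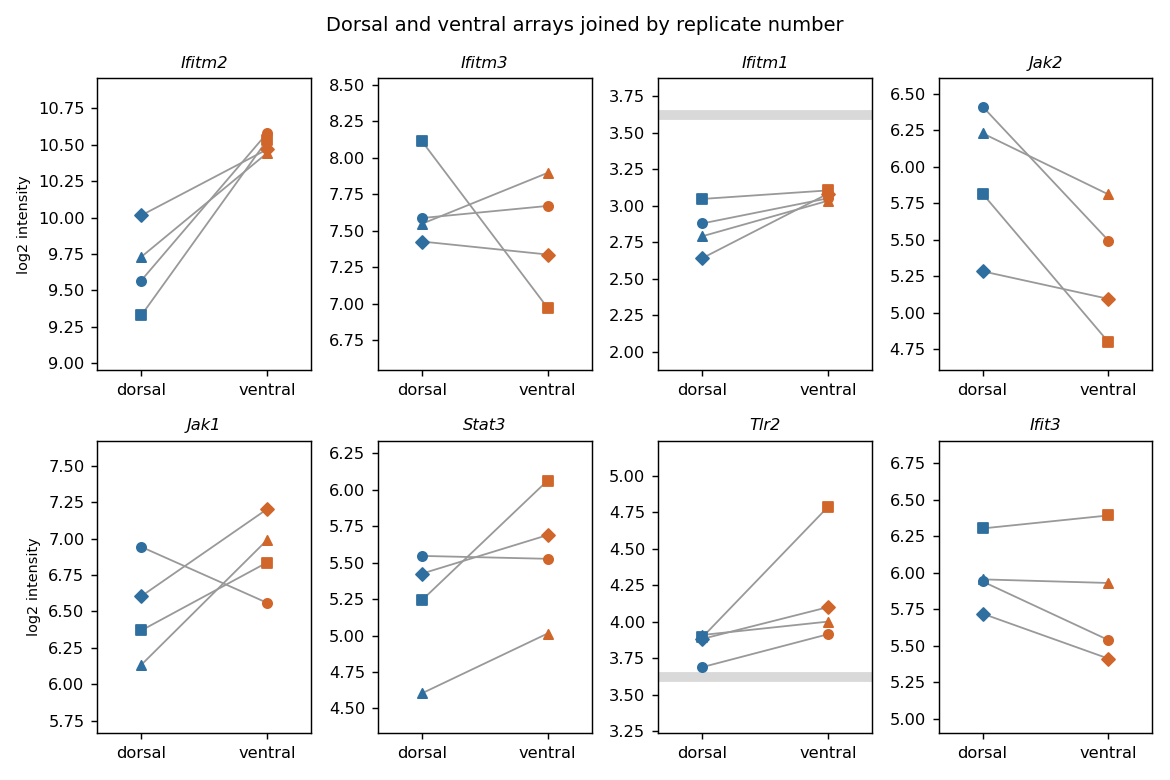
Log2 intensity of 8 members in dorsal and ventral tissue, with grey lines joining arrays of the same replicate number (circle 1, square 2, diamond 3, triangle 4) and a grey band for the array medians (3.59 to 3.65). Each panel has its own vertical scale; the 4 Ifitm2 lines go up to ventral values of 10.44 to 10.58 and the 4 Jak2 lines go down, while those of Ifitm3 cross.

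Among the other interferon targets 3 passed the filter and 7 did not. Ifit3, one of the tetratricopeptide antiviral proteins, read 5.94, 6.30, 5.72 and 5.95 in dorsal and 5.54, 6.39, 5.41 and 5.93 in ventral tissue. These overlap, with a difference of -0.16 (SE 0.18, interval -0.59 to 0.26). The gene has a close copy, Ifit3b, near it on chromosome 19, and no named row for that copy was used here, so the value may hold signal of both. Bst2 (tetherin), which holds budding viruses at the cell surface, stayed near the array median with 3.40 to 3.79 in dorsal and 3.38 to 3.91 in ventral tissue and differed by -0.028 (SE 0.15).

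The targets most used as markers of an interferon response lay under the array medians in both tissues. Isg15, a ubiquitin-like protein, read 2.43, 2.39, 2.54 and 2.46 in dorsal and 2.41, 2.51, 2.50 and 2.42 in ventral tissue. Mx1, an antiviral GTPase, lay between 2.15 and 2.57 over all arrays, and Oas1a, which makes the messenger that activates RNase L, between 2.26 and 2.86. Ifit1, which binds viral RNA ends, lay between 2.79 and 3.19, and the guanylate-binding protein Gbp2 between 2.58 and 3.26. Ifit2 exceeded the median on 1 array, dorsal replicate 2 (3.61), and its other values lay between 2.77 and 3.39. In that low range background limits any difference, so no fold is given, and an unexpressed gene and a weakly expressed one cannot be told apart. None of the 7 had an unadjusted p under 0.05 when all 24675 named genes were tested without the filter (smallest 0.067, Ifit2).

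**Figure D3:**
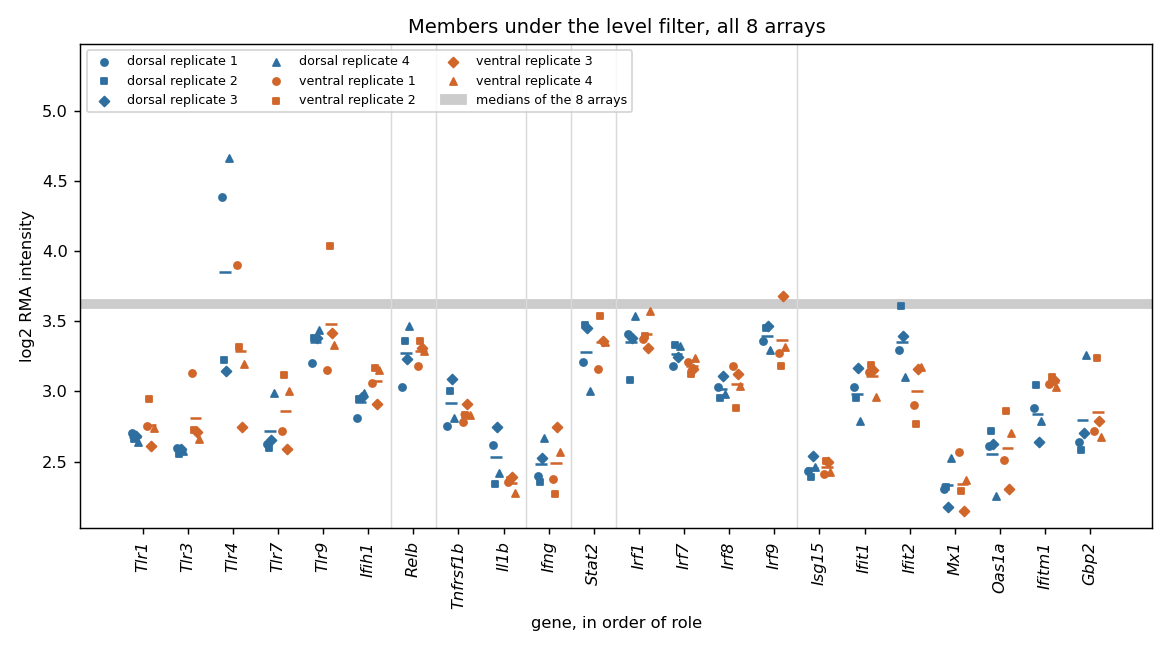
Log2 intensity on all 8 arrays of the 22 members that did not pass the filter, in order of role, with dorsal arrays in blue, ventral arrays in orange, short lines for tissue means and a grey band for the array medians (3.59 to 3.65). Nearly all points lie under the band; those of Tlr4 on dorsal replicates 1 and 4 (4.39 and 4.66) lie well over it.

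The ISRE core itself was common among these targets. Of 43 members with a window in the RefSeq promoter table, 10 held it in the 250 bases before a start (either strand), beside 3.46% of all 27025 genes with windows. Among the interferon targets, 7 of 10 held it, of which 3 passed the filter and 4 did not. Isg15 has 3 overlapping cores, Ifit1 and Ifit3 have 2 each, and Ifitm2 has 1, at 46 bases upstream. The NF-kB letters occurred in 6 members against 1.36% of all genes, among them Nfkbia, Nfkb2 and, at 116 bases upstream, Ifitm3. The interferon-gamma activated sequence (GAS, TTCNNNGAA, the same on both strands) occurred in 13 members against 8.13% of genes. In Bst2 and Myd88 it overlaps the ISRE core. Genes with several starts have several windows, and a match describes letters, not binding.

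Of the sensors, 2 of 8 passed the filter. Tlr2, a cell surface receptor for bacterial lipoproteins that macrophages carry, read 3.69, 3.89, 3.88 and 3.91 in dorsal and 3.91, 4.79, 4.10 and 4.00 in ventral tissue. The tissues did not overlap, but by a margin of less than 0.01 between the nearest arrays, and the difference was 0.36 (SE 0.18, interval -0.062 to 0.78, adjusted p 0.671). Without replicate number 2 it was 0.18. Macrophage markers were higher in ventral tissue too, as given above, and their part in this was not tested. Ddx58 read 3.56, 4.58, 4.15 and 4.21 in dorsal and 4.23, 3.84, 3.61 and 3.67 in ventral tissue. It was lower in ventral tissue in 3 of 4 replicate numbers, with a difference of -0.29 (SE 0.25), which became -0.61 without replicate number 1 and -0.14 without number 2.

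The other 6 sensors lay mostly under the array medians. Tlr4, the lipopolysaccharide receptor, was uneven: it read 4.39, 3.22, 3.15 and 4.66 in dorsal and 3.90, 3.32, 2.75 and 3.19 in ventral tissue. Thus 3 arrays exceeded the median, dorsal replicates 1 and 4 and ventral replicate 1. The nucleic acid sensors Tlr3, Tlr7 and Ifih1 lay under the median of every array, at 2.55 to 3.17 in all. Tlr1, the partner of Tlr2, lay at 2.61 to 2.94. Tlr9, which senses DNA, exceeded the median on ventral replicate 2 (4.03) and read 3.15 to 3.44 elsewhere.

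Downstream of the TLRs, 3 named adaptors and kinases were all tested and none differed beyond its spread. Myd88, the adaptor of most TLRs, read 3.58, 3.24, 3.45 and 3.77 in dorsal and 3.34, 3.85, 3.73 and 3.66 in ventral tissue, on both sides of the array medians. Its difference was 0.14 (SE 0.17). The kinase Irak1 read 4.80, 4.59, 4.60 and 4.83 in dorsal and 4.34, 4.51, 4.92 and 4.71 in ventral tissue, a difference of -0.088 (SE 0.19, interval -0.53 to 0.35). Traf6, the ubiquitin ligase after it, differed by 0.0036 (SE 0.15, interval -0.35 to 0.35).

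Of 4 NF-kB genes in the table, 3 were tested. Rela (p65), the main activating subunit, read 4.83, 4.91, 4.80 and 4.73 in dorsal and 5.26, 4.67, 5.11 and 5.37 in ventral tissue. The dorsal arrays lay close together (SD 0.076), 3 ventral arrays lay above them all and ventral replicate 2 below them all, and the difference was 0.28 (SE 0.20, adjusted p 0.783), from 0.16 without replicate number 4 to 0.46 without number 2. Nfkbia, the inhibitor that NF-kB itself induces, read 5.35, 5.55, 5.69 and 5.35 in dorsal and 5.30, 5.53, 5.39 and 5.33 in ventral tissue. It was lower in ventral tissue in 4 of 4 replicate numbers, by only 0.098 on average (SE 0.17, interval -0.50 to 0.31). Nfkb2, the subunit of the non-canonical pathway, differed by 0.16 (SE 0.18) and its partner Relb lay under the medians of all arrays (3.03 to 3.47).

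The cytokine tumour necrosis factor (Tnf) stayed close to the medians, at 3.61 to 3.99 in dorsal and 3.66 to 4.08 in ventral tissue, with a difference of -0.011 (SE 0.16, interval -0.40 to 0.38). Tnfrsf1a, its broadly expressed receptor, read 3.70, 3.59, 4.93 and 3.78 in dorsal and 4.51, 4.16, 4.21 and 4.09 in ventral tissue. All ventral arrays lay above 3 of the dorsal ones, and dorsal replicate 3 above all. The difference was 0.24 (SE 0.26), from 0.054 without replicate number 1 to 0.56 without number 3. Tnfrsf1b, the receptor of blood cells and endothelium, lay under every median (2.75 to 3.09). Interleukin 1 beta (Il1b) did too, at 2.34 to 2.75 in dorsal and 2.28 to 2.39 in ventral tissue. Its receptor Il1r1 read 3.85, 4.54, 4.995 and 4.86 in dorsal and 4.07, 4.82, 4.70 and 4.35 in ventral tissue, a difference of -0.080 (SE 0.20).

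All 4 interferon receptor chains exceeded the median on all 8 arrays, while interferon gamma (Ifng), the cytokine of T and natural killer cells, lay under it on all (2.27 to 2.75). Ifnar1 and Ifnar2 form the type I interferon receptor, and Ifngr1 and Ifngr2 that for interferon gamma. Ifnar1, Ifnar2 and Ifngr2 lie in 1 cluster on chromosome 16. Ifnar1 read 6.81, 6.85, 7.09 and 7.14 in dorsal and 6.95, 6.91, 7.10 and 6.94 in ventral tissue, and both means were 6.97 (interval of the difference -0.37 to 0.37). Ifngr2 differed by 0.057 (SE 0.21).

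The other chain of each receptor had the wider dorsal spread. Ifnar2 ranged from 7.44 to 8.27 in dorsal and from 7.26 to 8.65 in ventral tissue, with a difference of 0.20 (SE 0.30) that became 0.60 without replicate number 1 and -0.046 without number 4. Ifngr1 read 4.67, 5.09, 4.73 and 3.85 in dorsal and 4.82, 4.81, 4.74 and 5.60 in ventral tissue. The lowest dorsal and the highest ventral value both belong to replicate number 4, the one with liver transcripts. The difference of 0.41 (SE 0.34) became -0.037 without that number, and the part of the liver transcripts in this was not tested.

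**Figure D4:**
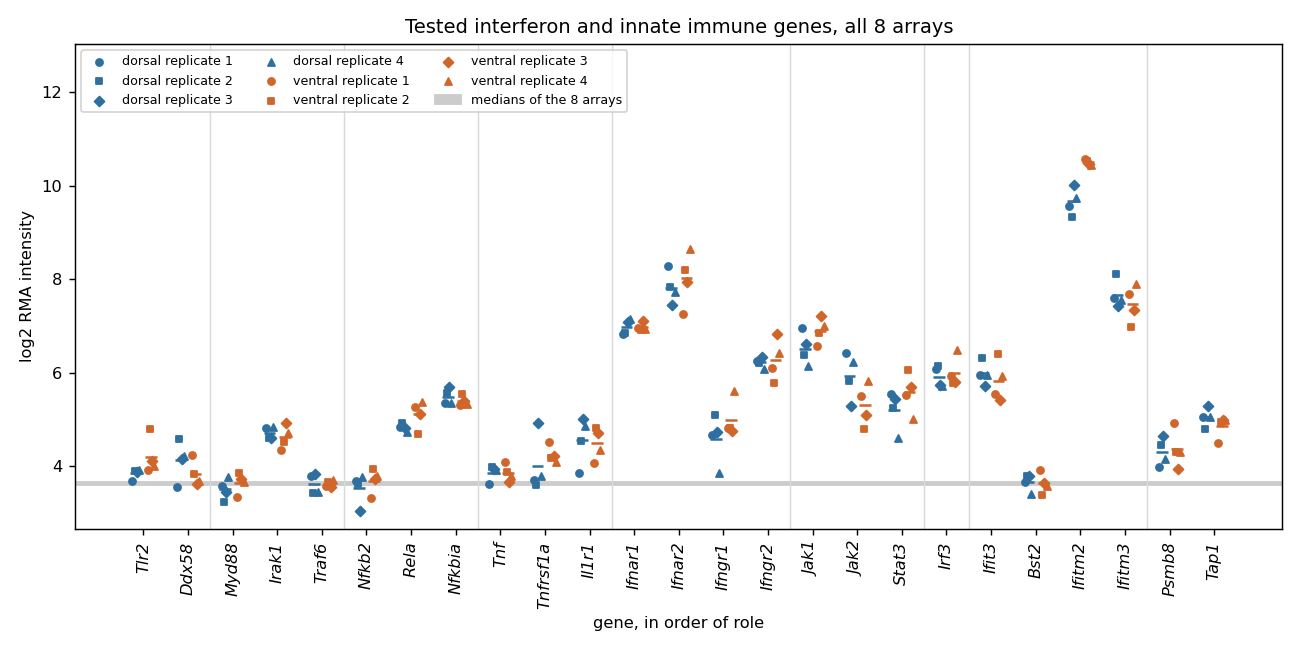
Log2 intensity on all 8 arrays of the 25 tested members, in order of role, with dorsal arrays in blue, ventral arrays in orange, short lines for tissue means and a grey band for the array medians (3.59 to 3.65). Heights are not comparable between genes; within a gene the tissues overlap except for Ifitm2 and, by a narrow margin, Tlr2.

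Among the JAK and STAT genes, Jak2 had lower ventral values. Jak2, the kinase of the interferon gamma receptor and of many blood cytokine receptors, read 6.41, 5.81, 5.28 and 6.23 in dorsal and 5.49, 4.80, 5.09 and 5.81 in ventral tissue. The tissues overlapped, but within each replicate number the ventral array was lower, by 0.92, 1.02, 0.19 and 0.42. The difference was -0.64 (SE 0.21, interval -1.13 to -0.14), with an unadjusted p of 0.0186 and an adjusted p of 0.472 in limma. That unadjusted p rests on joining arrays by replicate number: without the block it was 0.0572. It was 0.0662 without replicate number 1 and 0.0781 without number 2. Erythroid genes, whose cells use Jak2 under the erythropoietin receptor, had ventral means below dorsal for 5 of 6 tested markers. Over all genes tested 49.2% had higher ventral means. The summed linear level of the 6 markers, set mostly by the globins Hbb-bt and Hbb-y, overlapped (4299 to 9952 dorsal, 5291 to 7227 ventral). In order of replicate number it was 5788, 5807, 4299 and 9952 in dorsal and 7227, 6146, 5291 and 6802 in ventral tissue. Alas2, Klf1 and Epor were each lower in ventral tissue in 3 of 4 replicate numbers. Hbb-y was lower in 2, and Hbb-bt and Slc4a1 in 1. The part of erythroid cells in the Jak2 values was not tested.

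Jak1, which serves all interferon receptors, went the other way by its mean. It read 6.94, 6.37, 6.60 and 6.13 in dorsal and 6.56, 6.84, 7.20 and 6.99 in ventral tissue, higher in 3 of 4 replicate numbers, with a difference of 0.38 (SE 0.23, adjusted p 0.739). It was 0.64 without replicate number 1, the exception, and 0.23 without number 4. Stat3, the main transducer of interleukin 6 type cytokines, ranged from 4.60 to 5.55 in dorsal and from 5.01 to 6.06 in ventral tissue and differed by 0.37 (SE 0.20, adjusted p 0.716), or by 0.22 without replicate number 2. Stat2, the partner needed for type I interferon, lay under every median (3.00 to 3.54).

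Of 5 IRFs only Irf3 passed the filter. Irf3, made constitutively and activated by phosphorylation, read 6.08, 6.13, 5.73 and 5.71 in dorsal and 5.93, 5.78, 5.80 and 6.48 in ventral tissue. These overlap, with a difference of 0.083 (SE 0.23, interval -0.45 to 0.62). The induced Irf7 and the myeloid Irf8 lay under the median of every array, at 3.13 to 3.33 and 2.88 to 3.18. Irf1, induced by interferon gamma, lay at 3.08 to 3.57, and Irf9, the DNA-binding partner of Stat2, exceeded the median on ventral replicate 3 (3.68) and lay at 3.18 to 3.47 elsewhere.

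Tap1 and Psmb8, neighbours on chromosome 17 that serve peptide loading of MHC class I, both passed the filter. The peptide transporter Tap1 read 5.05, 4.80, 5.29 and 5.05 in dorsal and 4.49, 4.95, 4.98 and 4.99 in ventral tissue, a difference of -0.19 (SE 0.19). Psmb8, a subunit of the immunoproteasome, read 3.98, 4.45, 4.64 and 4.16 in dorsal and 4.92, 4.30, 3.93 and 4.30 in ventral tissue. The tissues overlapped for both genes, and the Psmb8 difference was 0.055 (SE 0.27, interval -0.57 to 0.68).

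A wider list of 121 other genes of these pathways gave a like picture. Of the 113 found in the deposited values, 47 were tested, 24 with higher and 23 with lower ventral means, with a median difference of 0.0090, and 0 passed the adjusted threshold in limma. At an unadjusted p under 0.05 there were 5, of which 3 were higher (4.08% of all genes tested) and 2 lower (4.18%). The tissues did not overlap for 2 that were higher (2.01% of all genes tested) and 1 that was lower (2.38%). The widest gap was that of Iigp1, an interferon-induced GTPase that attacks the vacuoles of intracellular parasites. Iigp1 read 3.22, 3.63, 3.97 and 3.99 in dorsal and 4.94, 5.08, 7.94 and 6.79 in ventral tissue. No ventral array overlapped a dorsal one, and the difference was 2.49 (SE 0.41, unadjusted p 0.000459, adjusted p 0.184 in limma), with dorsal values so near the array medians that no fold is given. Ventral replicates 3 and 4 were the highest, and without number 3 the difference was 1.99.

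Related GTPases in that list did not pass the filter. Igtp lay under the median of every array (2.72 to 2.96) and Irgm1 exceeded it on 3 (dorsal replicates 3 and 4 and ventral replicate 1, at 3.85, 4.23 and 4.02).

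Other genes of the wider list with higher ventral means were Ifi30, a lysosomal thiol reductase of antigen-presenting cells (0.85, SE 0.29), the cytoplasmic DNA signalling adaptor Sting1 (0.64, SE 0.25) and Tab2, an adaptor before NF-kB (0.48, SE 0.21). Ifi30 did not overlap between tissues, but by a narrow margin, at 3.96 to 4.93 in dorsal and 4.97 to 5.92 in ventral tissue. Macrophage markers were higher in ventral tissue too, and their part was not tested. The proteasome activator Psme1 (0.28, SE 0.13) and Ifi27 (0.45, SE 0.25) followed. With lower ventral means came Il6st, the gp130 chain shared by interleukin 6 type receptors, at 8.01 to 8.26 in dorsal and 6.75 to 7.90 in ventral tissue (-0.68, SE 0.21, adjusted p 0.435 in limma), which did not overlap. The NF-kB kinase Ikbkb (-0.64, SE 0.25), the lymphotoxin receptor Ltbr (-0.41, SE 0.19), Stat5a (-0.32), Ciita (-0.33) and Cmpk2 (-0.31) came next. Of these 10 after Iigp1 and Il6st, 3 had an unadjusted p under 0.05: Ifi30 (0.0207), Sting1 (0.0386) and Ikbkb (0.0399). Sting1 passed the filter through its ventral arrays and dorsal replicate 2, with the other dorsal arrays under their medians (3.28 to 3.47). Single replicate numbers moved several of these differences: without number 4 that of Sting1 was 0.40, that of Tab2 0.25, that of Ikbkb -0.41 and that of Cmpk2 -0.066, and without number 1 that of Ifi30 was 0.55, that of Il6st -0.44 and that of Cmpk2 -0.55. Without number 2 that of Ifi27 was 0.24, that of Psme1 0.17 and that of Sting1 0.94.

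**Figure D5:**
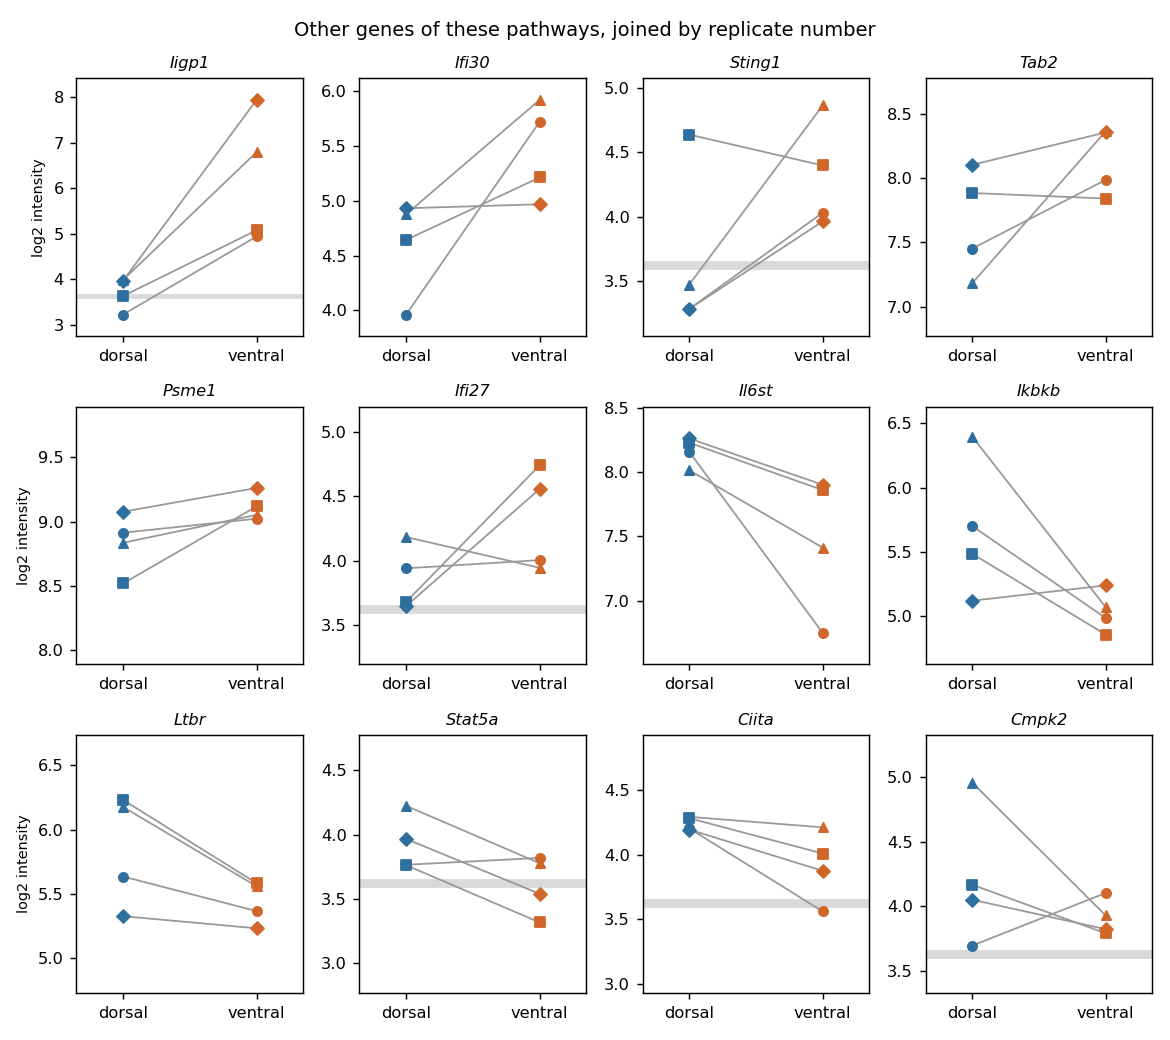
Log2 intensity of 12 genes of the wider list, the 6 with the smallest unadjusted p among those with higher ventral means and the 6 among those with lower. Grey lines join arrays of the same replicate number (circle 1, square 2, diamond 3, triangle 4), and a grey band marks the array medians (3.59 to 3.65). Each panel has its own scale. The ventral points of Iigp1 and, by a narrow margin, Ifi30 lie above all dorsal ones, and those of Il6st below.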

How the data were processed

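The deposited values are log2 intensities; the submitters' processing notes name Affymetrix Expression Console and RMA. RMA makes the arrays' distributions alike, so differences are relative to other genes. Versions, genome build and the array definition behind the 25429 Entrez-numbered rows are not given in the sources used here. The platform table named 24675 rows, and current symbols were looked up by Entrez number in RefSeq (GRCm38.p6).

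Genes were fitted with limma 3.58.1 in R 4.3.3 (lmFit, eBayes with trend and robust estimation, two-sided, Benjamini-Hochberg over 12416 genes), keeping the replicate number as a block. The fit was tested on simulated data with no replicate effect and with changes larger than any member showed. That test does not bear on the block. The labels give the same embryos for both tissues without tying a number to an embryo. After subtracting tissue means, arrays sharing a number correlated at 0.022 to 0.12, and other pairs at -0.13 to 0.10. If numbers do not mark embryos, p-values measure only the spread between these samples.

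Members and lists were chosen with earlier results of these data known. Values on all arrays are given for members with an unadjusted p under 0.05 and, in each role, those with the highest and lowest difference, and, chosen after their values were seen, Ifit3, Isg15 and Tlr4. Of the wider list, the 6 with the smallest p each way are named, and Igtp and Irgm1 were added after their values were seen. Alternatives were fits with no block or a random block, other filters, no trend, array weights, arrays centred on their median, and each replicate number left out.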

Additional observations from a re-analysis of the deposited data

Results flagged for a closer look

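In 7 of 118 groups of 4 arrays (the members and the 12 named genes of the wider list, in each tissue), 1 array lay far from the other 3 by Dixon's criterion, where chance gives about 1 in 20. Dorsal replicate 1 was low for Tlr2 (3.69, the others 3.88 to 3.91), and ventral replicate 1 was high for Tlr3 (3.13, the others 2.66 to 2.73) and low for Tap1 (4.49, the others 4.95 to 4.99). Dorsal replicate 2 was high for Sting1 (4.64, the others 3.28 to 3.47) and dorsal replicate 3 was high for Tnfrsf1a (4.93, the others 3.59 to 3.78). In replicate number 4, the dorsal array was high for Tlr7 (2.99, the others 2.60 to 2.66) and the ventral array for Ifngr1 (5.60, the others 4.74 to 4.82).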

How the results depend on the processing

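Over 11 alternatives, 0 members and 0 of the 12 named genes of the wider list reached an adjusted p under 0.05 in limma. Ifitm2 kept its direction in all 11, from 0.72 to 0.97, with adjusted p from 0.112 to 0.464, and Jak2 from -0.78 to -0.51, with adjusted p from 0.412 to 0.818. Iigp1 was tested in 10 and ranged from 1.99 to 2.83. Of the 25 tested members 11 kept their direction throughout and 14 turned at least once.

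Without the replicate block, and with a random replicate block, 4 genes of all those tested were called and 1 member had an unadjusted p under 0.05, against 0 and 2 with the fixed block. The stricter filter, which tests 6156 genes, called 10. Leaving out 1 replicate number gave 0 to 9 called genes (9 without number 1), 1 to 4 members at an unadjusted p under 0.05, and a median over members of -0.033 to 0.11. Without number 1 the 4 members were Ifitm2, Jak1, Ifnar2 and Ddx58.

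The turned differences were all of members whose interval spans 0, and the cause was not tested. With array weights they were Traf6 (-0.022), Ifnar1 (0.0048) and Psmb8 (-0.024), and with centred arrays Traf6 (-0.00041). With 1 replicate number left out at a time, the members that turned ranged as follows: Traf6 (-0.083 to 0.092), Ifnar1 (-0.045 to 0.069), Psmb8 (-0.24 to 0.31), Irak1 (-0.22 to 0.036), Myd88 (-0.024 to 0.26), Tnf (-0.17 to 0.076), Bst2 (-0.12 to 0.095), Ifitm3 (-0.38 to 0.11), Nfkb2 (-0.0098 to 0.34), Ifngr2 (-0.085 to 0.22), Il1r1 (-0.20 to 0.065), Ifnar2 (-0.046 to 0.60), Ifngr1 (-0.037 to 0.64) and Irf3 (-0.15 to 0.23). Differences of genes near the array medians are to be read with the most caution, since background limits them. Several members that turned, such as Ifnar1 (mean 6.97 in both tissues), lay well above the medians.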
